A study of Mus musculus with 6 samples.

Results

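The genes studied here encode the secreted ligands of the Wnt, fibroblast growth factor (Fgf), bone morphogenetic protein (Bmp), growth and differentiation factor (Gdf), transforming growth factor beta (Tgfb), activin and hedgehog pathways, with the Bmp antagonists noggin and chordin. They were chosen by symbol: Wnt, Fgf, Bmp, Gdf or Tgfb followed by a number, or Shh, Ihh, Dhh, Nodal, Inhba, Inhbb, Nog or Chrd. The rule found 56 of the 18778 genes that the authors' gene tables name, in 7 families: 16 Wnt, 17 Fgf, 9 Bmp and 6 Gdf genes, 4 Tgfb and activin genes, 2 hedgehog genes and 2 antagonists. A further 17 RefSeq symbols that match the rule, among them Dhh and Nodal, are in none of these tables and were not analysed here. The tables name only genes that were paired with a listed peak, so genes without such a pairing were not counted. A symbol is a rough guide to function, since Bmp1 encodes a protease and Fgf11 to Fgf14 encode proteins that stay inside the cell. With the 2 antagonists, 7 of the 56 are therefore not secreted ligands.

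Chromatin came from cultured cells of C57BL/6 mice. Neural stem cells (NSCs) derived from embryonic stem cells were used on day 0, negative for the red fluorescent protein RedStar, after growth in Euromed-N medium with N2, 10 ng/ml of Fgf2 and 10 ng/ml of epidermal growth factor. Neurons made from them were taken after 11 days, 4 in Euromed-N with N2, B27 and 5 ng/ml of Fgf2 and 7 in N2B27 medium. They were sorted for RedStar driven by the Tau (Mapt) promoter, a sort that keeps the cells in which this promoter of an axonal protein gene is active. Cells of both kinds were labelled with passages 25 to 30. Each cell type gave 1 chromatin immunoprecipitation library for trimethylated lysine 4 of histone H3 (H3K4me3), 1 for trimethylated lysine 27 (H3K27me3) and 1 input library. Without replicates, no difference below could be tested, and the words lost and gained state only that a called peak was absent or present.

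Morphogen ligands are released by small groups of cells and pattern the tissue around them, so each is active at few places and times. H3K4me3 lies at start sites that are active or poised, and H3K27me3, laid down by Polycomb repressive complex 2, covers many developmental genes that are silent. A start site that carries both is often called bivalent. In the developing brain Wnt and Bmp ligands come mainly from the dorsal midline, Shh from the ventral midline and Fgf8 from local organizers, while Fgf2 keeps neural stem cells dividing.

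Promoters of these genes differ in their content of the dinucleotide CG, which is frequent in the CpG islands where both marks are often found. To show how far they differ, 5 promoters are printed, each from a gene with another pattern of marks. The windows do not lie under every peak named: the H3K27me3 peaks of Wnt4 and Wnt7a are beside the start, and Fgf10 has no peak within 1000 bp of the start site scored. Each is the 250 bases before the start of the gene in RefSeq (build GRCm38.p6), written 5′ to 3′ on the gene's strand with every CG in capitals. These coordinates are not on the build of the peaks (mm9), and the RefSeq start need not be the start site scored. Inhbb (chr1:119422249-119422498, minus strand) carried H3K4me3 alone in both cell types. Wnt7a (chr6:91411354-91411603, minus strand) had both marks in NSCs and H3K4me3 alone in neurons. Wnt4 (chr4:137277385-137277634, plus strand) had both marks in NSCs and H3K27me3 alone in neurons. Wnt3a (chr11:59290752-59291001, minus strand) had H3K27me3 alone in both, and Fgf10 (chr13:118714449-118714698, plus strand) neither mark in either at the start site scored. An NSC H3K4me3 peak with 29 reads over 5 lay 44402 bp downstream of that start, inside the gene. In neurons an H3K27me3 peak with 46 reads over 28 began 2802 bp downstream, and an H3K4me3 peak with 24 over 10 began 33202 bp downstream. Whether the Fgf10 window lies under any of these peaks was not tested, so it need not be an unmarked sequence.
Inhbb: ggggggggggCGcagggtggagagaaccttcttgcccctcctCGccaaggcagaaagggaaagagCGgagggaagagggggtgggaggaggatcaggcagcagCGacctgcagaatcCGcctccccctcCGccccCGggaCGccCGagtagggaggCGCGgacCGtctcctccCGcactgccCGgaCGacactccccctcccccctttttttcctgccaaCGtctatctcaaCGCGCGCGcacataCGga
Wnt7a: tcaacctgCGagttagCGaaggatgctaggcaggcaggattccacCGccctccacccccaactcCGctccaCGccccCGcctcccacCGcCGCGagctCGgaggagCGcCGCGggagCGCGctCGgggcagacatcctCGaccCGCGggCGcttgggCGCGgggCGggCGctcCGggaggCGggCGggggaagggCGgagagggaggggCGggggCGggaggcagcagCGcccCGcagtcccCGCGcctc
Wnt4: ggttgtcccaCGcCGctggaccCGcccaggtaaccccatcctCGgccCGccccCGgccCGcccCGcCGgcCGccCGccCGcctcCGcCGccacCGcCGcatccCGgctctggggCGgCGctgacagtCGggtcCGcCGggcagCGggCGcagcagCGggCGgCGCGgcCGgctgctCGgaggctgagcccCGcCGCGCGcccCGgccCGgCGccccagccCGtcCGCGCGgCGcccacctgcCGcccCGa
Wnt3a: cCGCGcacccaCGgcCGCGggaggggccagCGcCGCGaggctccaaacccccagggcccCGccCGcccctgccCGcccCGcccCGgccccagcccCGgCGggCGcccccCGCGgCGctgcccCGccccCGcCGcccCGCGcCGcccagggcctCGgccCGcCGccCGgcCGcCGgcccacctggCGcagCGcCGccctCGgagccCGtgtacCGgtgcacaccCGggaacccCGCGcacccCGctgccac
Fgf10: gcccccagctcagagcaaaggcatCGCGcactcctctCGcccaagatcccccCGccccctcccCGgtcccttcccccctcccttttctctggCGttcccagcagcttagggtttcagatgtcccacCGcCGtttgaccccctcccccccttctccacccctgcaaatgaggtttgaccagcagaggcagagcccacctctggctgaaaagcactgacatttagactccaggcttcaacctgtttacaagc
The windows hold 21, 34, 44, 41 and 8 CG in this order. Of the 8000 RefSeq windows of this length for scored genes with a single window, 7842 hold at least 1 CG, and the median is 16. Of the printed promoters the Fgf10 window alone lies below that median, and the Wnt3a window, without an H3K4me3 peak, has nearly as many CG as the Wnt4 window. Of the 56 genes only 36 (64.3%) have a single RefSeq window, too few for a summary over the set.

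Peaks had been called by the authors with SICER, per the submitters' processing notes, in each library against its input. The 4 libraries held 14846 to 36053 peaks with 983266 to 3623654 immunoprecipitated reads in them, and the neuron H3K4me3 library had the fewest of both. At 397 H3K4me3 peaks called with identical bounds in NSCs and neurons, the neuron over NSC ratio was 0.399 for immunoprecipitated reads and 0.775 for input reads. For H3K27me3 these ratios were 0.981 and 0.784 over 114 such peaks. This difference in enrichment moves with every loss of H3K4me3 below, and its part in them was not tested. A gene with no peak may still hold reads, since the smallest listed peak had 13 reads in neuron H3K4me3 and 14 in NSC H3K4me3. As a check of the cell labels, 7 of 7 neural stem cell markers carried H3K4me3 in NSCs, and they kept it in neurons. Of the 6 neuron markers scored, 3 carried H3K4me3 in NSCs and 3 in neurons. Dcx gained it and Syt1 lost it in neurons, while Tubb3 and Mapt kept it and lost H3K27me3. The sort used the Mapt promoter, so Mapt is not an independent check, and a neuronal H3K27me3 peak lay 4305 bp from its start. Stmn2 had H3K27me3 alone in both cell types, and Snap25 had neither mark in either. None of the 4 pluripotent cell markers was scored.

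H3K4me3 was about as frequent at ligand genes as at other genes in NSCs, and H3K27me3 was found at most of them. A gene counted as marked where any listed peak came within 1000 bp of its start site. H3K4me3 stood at 40 of the 56 in NSCs (71.4%), against 70.4% of all 18778 genes, so for this mark the set was close to the background. In neurons it stood at 28 (50.0%), against 61.7%. H3K27me3 stood at 37 in NSCs (66.1%), against 19.2%, and at 32 in neurons (57.1%), against 17.9%. Both marks together were found at 24 in NSCs (42.9%), against 8.53%, and at 13 in neurons (23.2%), against 4.59%. Only 3 genes had neither mark in NSCs and 9 in neurons, against 19.0% and 25.1% of all genes. Genes entered the gene tables through a paired peak, so unmarked genes may be missing from these counts and from the shares over all genes.

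The 56 genes fell into 11 patterns, with most in 4 of them. H3K4me3 alone in both cell types was the pattern of 13 genes: Bmp1, Bmp7, Fgf2, Fgf11, Fgf18, Fgf20, Gdf1, Gdf9, Gdf11, Inhbb, Tgfb2, Wnt5a and Wnt7b. Of these, Fgf2, Fgf20, Gdf1, Gdf9 and Wnt7b have the start of another gene within 1000 bp, at 35 bp for Fgf2 (Bbs12) and 6 bp for Gdf1 (Lass1), and their peak cannot be assigned to the ligand gene alone. Both marks in both cell types were found at 10: Bmp2, Chrd, Fgf5, Fgf9, Fgf12, Fgf15, Gdf6, Ihh, Tgfb1 and Wnt6. In 11, both marks in NSCs gave way to H3K27me3 alone in neurons: Bmp6, Bmp8a, Fgf8, Gdf7, Gdf10, Wnt1, Wnt2b, Wnt4, Wnt9a, Wnt9b and Wnt11. H3K27me3 alone in both cell types was the pattern of 8: Bmp3, Bmp4, Fgf4, Shh, Wnt2, Wnt3a, Wnt8b and Wnt10a. Bmp8b, Fgf10 and Fgf14 had neither mark in either, and the other 11 genes changed in ways described by family below.

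**Figure D1:**
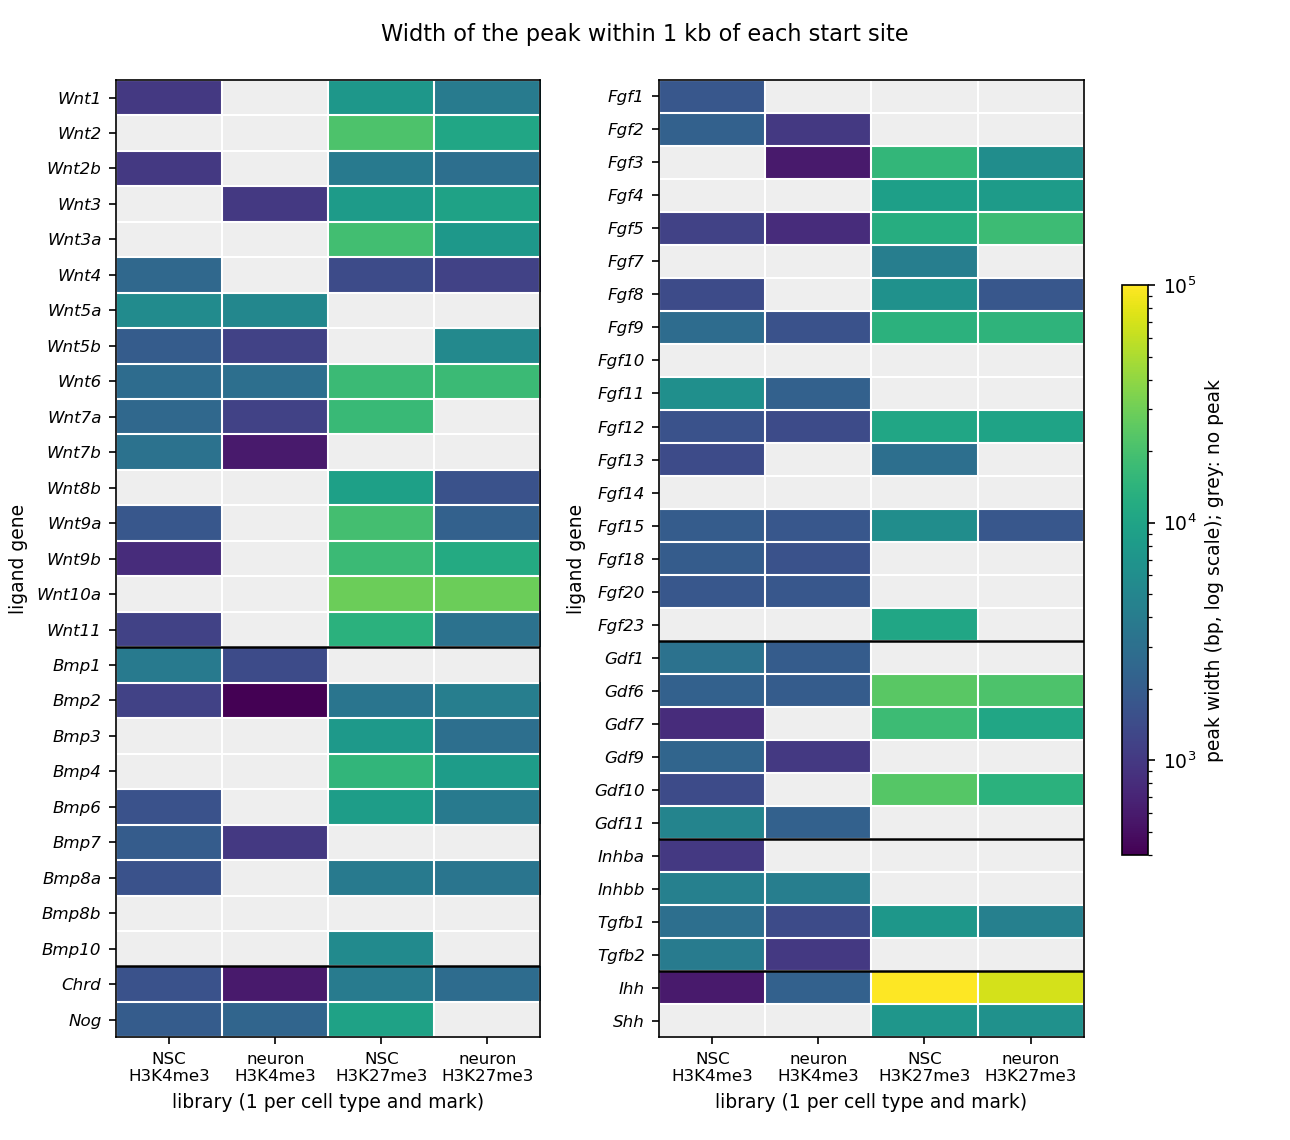
Width of the peak within 1 kb of each of the 56 start sites (colour, log scale in bp) in the 4 libraries, genes in rows grouped by family, grey where no peak was listed. Colour in the H3K27me3 columns with grey in the neuron H3K4me3 column marks genes such as Wnt1, Wnt4 and Gdf7, and Ihh has the widest domain in both H3K27me3 libraries.

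Around the start site the marks differed in reach. At the start site itself 69.6% of the ligand genes lay inside an NSC H3K4me3 peak (67.0% of all genes) and 41.1% inside a neuron one (52.2%). H3K27me3 covered 58.9% of ligand start sites in NSCs (15.4% of all genes) and 51.8% in neurons (13.9%). At 10 kb before the start, H3K27me3 still covered 28.6% of the ligand genes in NSCs and 30.4% in neurons, against 12.0% and 9.48% of all genes. H3K4me3 at that distance covered 3.57% and 0.0% of them, so the wide signal was that of H3K27me3.

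**Figure D2:**
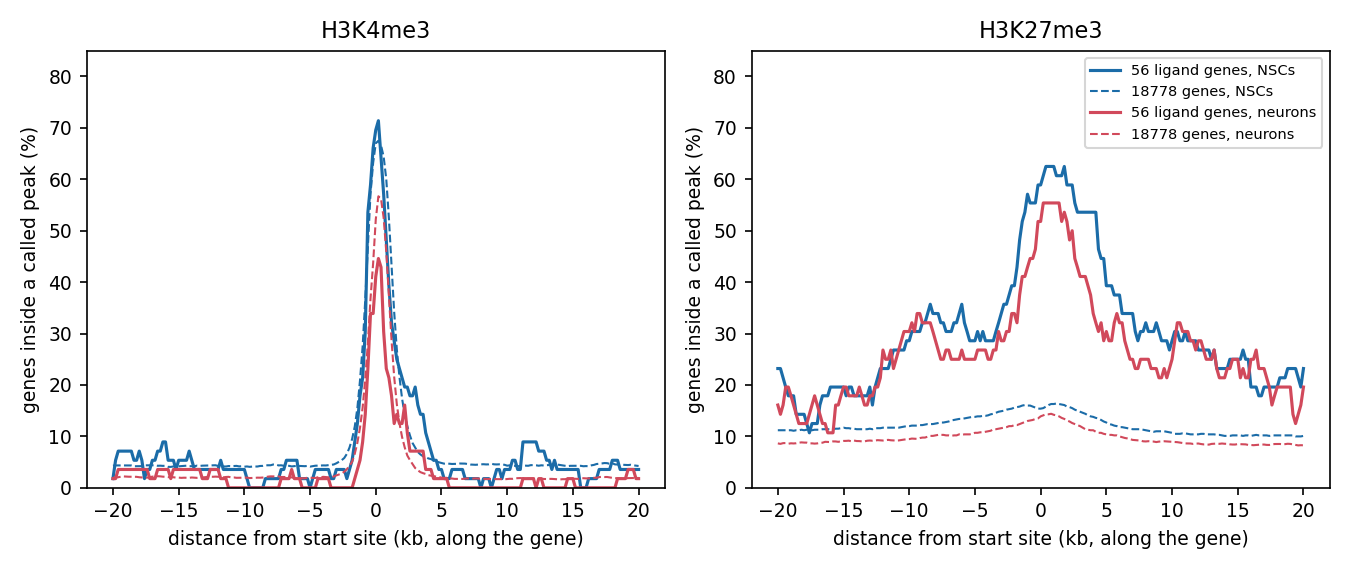
Share of genes (%, vertical axis) lying inside a called peak at each distance from the start site (kb, horizontal axis), for the 56 ligand genes (solid) and 18778 genes (dashed), NSCs in blue and neurons in red. The H3K4me3 curves of ligand and other genes peak at similar heights in NSCs, and the H3K27me3 curves of the ligand genes lie above those of all genes within 10 kb of the start site.

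Wnt genes carried H3K27me3 at 13 of 16 in NSCs and at 13 in neurons, with 12 marked in both. Their H3K4me3 calls dropped from 11 in NSCs to 6 in neurons. H3K4me3 was lost at 14 of the 40 ligand genes that had it (13.6% of all marked genes lost it), and 6 of the 14 were Wnt genes. Wnt4, which acts in kidney and gonad development, had the most reads of the lost peaks, though not the highest fold (mm9 chromosome 4, gene from 136833404 to 136855641). Its NSC H3K4me3 peak was 2600 bp wide with 189 immunoprecipitated reads over 23 input reads, an 8.42-fold enrichment (95% exact interval 5.44 to 13.6, counting error only), and the nearest neuronal peak lay 78796 bp away. H3K27me3 at Wnt4 was a small peak in both, of 1400 bp and 35 reads in NSCs at 805 bp from the start and of 1200 bp and 31 reads in neurons at 196 bp. These H3K27me3 peaks lay on opposite sides of the start site and did not overlap.

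Wnt9a, known from joint development, had an H3K4me3 peak of 1800 bp with 124 reads over 16 in NSCs and none closer than 77831 bp in neurons. Its H3K27me3 domain of 19200 bp in NSCs (470 reads over 174) was matched by a nearest neuronal peak of only 2200 bp (56 over 18). Neuronal peaks nevertheless covered 91.7% of the NSC domain, and the gap between the called peaks lay at the start site. Wnt2b, a ligand of the dorsal midline, lost a peak of 1000 bp with 77 reads over 9 and kept H3K27me3 at 3800 bp (82 reads) in NSCs and 3000 bp (62 reads) in neurons. The other lost Wnt peaks were weak: 30 reads over 8 at Wnt1, a ligand of the midbrain-hindbrain boundary, 44 over 15 at Wnt11, which acts mostly outside the beta-catenin route, and 24 over 6 at Wnt9b. Wnt1 kept H3K27me3 over 7400 bp (271 reads) in NSCs and 4000 bp (134 reads) in neurons, and Wnt11 in 13600 bp (424 reads) and 3200 bp (88 reads).

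Wnt3 and Wnt9b, neighbours whose start sites lie 24329 bp apart, changed in opposite directions. Wnt3, a ligand of early axis formation, had no H3K4me3 peak within 24065 bp in NSCs and gained one of 1000 bp with 26 reads over 7 in neurons. Wnt9b had a peak of 800 bp with 24 reads over 6 in NSCs and none within 23865 bp in neurons. H3K27me3 lay at both genes in both cell types, with 192 reads in each library at Wnt3 and 482 then 298 at Wnt9b, and no peak covered both start sites. These H3K4me3 calls rest on few reads, like that of Wnt7b in neurons below.

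Wnt7a and Wnt7b, ligands made by neural cells that also guide brain blood vessels, kept H3K4me3. At Wnt7a (mm9 chromosome 6, gene from 91313975 to 91361357) it narrowed from 2600 bp with 316 reads over 30 to 1200 bp with 69 over 7, at folds within each list of 10.8 (7.41 to 16.3) and 9.79 (4.51 to 25.3). Its H3K27me3 domain of 17000 bp in NSCs (368 reads over 161) ended 443 bp before the start, while the nearest neuronal peak (83 reads over 10) lay 5443 bp away. Neuronal peaks still covered 47.1% of that domain, so the call of a loss concerns its promoter end. At Wnt7b the H3K4me3 peak was 3200 bp with 324 reads in NSCs and 600 bp with 22 reads in neurons, with no H3K27me3 within 150588 bp in either.

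Wnt5b, a ligand of the route independent of beta-catenin, was the single member to gain H3K27me3, of 19 that could (4.40% of all unmarked genes gained it). Its neuronal domain was 5400 bp with 135 reads over 48, a 2.95-fold enrichment (2.11 to 4.20), and the nearest NSC domain was 208337 bp away. H3K4me3 at Wnt5b was 2000 bp with 241 reads in NSCs and 1200 bp with 43 reads in neurons, so in neurons it carried both marks. Wnt5a, its close relative, carried the widest H3K4me3 peak of the family, 5800 bp with 520 reads in NSCs and 5200 bp with 234 in neurons, and no H3K27me3 within 32064 bp. Wnt10a, known from teeth and hair, had the widest H3K27me3 domain of the family, 29000 bp in both cell types with 1297 and 1051 reads, and no H3K4me3 at its start. Wnt6, 19624 bp from it, carried both marks in both cell types, with H3K27me3 over 17200 bp in each. Wnt3a and Wnt8b of the dorsal midline and Wnt2 had H3K27me3 alone in both, narrowing from 18600, 9200 and 21200 bp in NSCs to 7600, 1600 and 10400 bp in neurons.

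Fgf genes were more varied, with H3K4me3 at 11 of 17 in NSCs, against 9 in neurons, while H3K27me3 stood at 10 and 7. Fgf2, the mitogen supplied in the NSC medium, had H3K4me3 alone, 2200 bp with 207 reads over 24 in NSCs and 1000 bp with 44 over 9 in neurons, shared with Cetn4 and Bbs12. Fgf8, the ligand of brain organizers (mm9 chromosome 19, gene from 45811288 to 45817405), lost an H3K4me3 peak of 1400 bp with 105 reads over 12. In neurons no H3K4me3 came closer than 5795 bp. Its H3K27me3 was 6600 bp with 148 reads in NSCs, and 42.4% of that was covered in neurons, where the peak at the start was 1800 bp with 41 reads.

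H3K4me3 was also lost at Fgf1, a broadly made growth factor (1800 bp, 64 reads over 29 in NSCs, no H3K27me3 near it), and at Fgf13, which regulates sodium channels inside the cell (1400 bp, 43 over 4). Fgf13 also lost its H3K27me3, 3000 bp with 58 reads in NSCs, although a neuronal domain of 2600 bp with 49 reads began 1249 bp from the start. Fgf3, a ligand of the inner ear and hindbrain, gained an H3K4me3 peak of 600 bp with 19 reads over 2, 612 bp from its start, within an H3K27me3 domain that went from 15400 bp with 439 reads to 6000 bp with 161. Gains of H3K4me3 were thus 2 of 16 that could, Wnt3 and Fgf3 (2.81% of all unmarked genes), both under H3K27me3 and both on few reads.

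Fgf7, a mesenchymal ligand of epithelia, and Fgf23, a hormone of bone, had H3K27me3 alone in NSCs and neither mark in neurons. Fgf7 had 4200 bp with 65 reads over 41 in NSCs and no neuronal domain within 37606 bp. Fgf23 had 10600 bp with 157 reads over 149, a 1.47-fold enrichment (1.17 to 1.86), and the nearest neuronal domain was 5480 bp away. These were weak domains, as the median fold of the 37 ligand domains in that list was 4.32.

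Both marks persisted at Fgf5, Fgf9, Fgf12 and Fgf15. Fgf5, a regulator of hair growth, had the widest neuronal H3K27me3 of the family, 17800 bp with 450 reads against 12600 bp with 411 in NSCs, and H3K4me3 of 74 reads in NSCs and 33 in neurons. Fgf9, a growth factor first found in glial cells, kept H3K27me3 at 14000 bp with 562 reads and 14400 bp with 366. Fgf15, made in the neural tube, kept H3K4me3 at 109 and 54 reads while its H3K27me3 peak at the start went from 6000 to 1800 bp. Fgf11, an intracellular relative, had the widest H3K4me3 peak of all 56 in NSCs, 6200 bp with 397 reads, and 2200 bp with 73 reads in neurons. Fgf18 and Fgf20 kept H3K4me3 alone, and Fgf4 kept H3K27me3 alone (357 and 209 reads).

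Of 9 Bmp genes, 5 had H3K4me3 in NSCs against 3 in neurons, and 6 then 5 had H3K27me3. Bmp6 lost an H3K4me3 peak of 1600 bp with 34 reads over 14, and Bmp8a, a ligand of germ cell development, a stronger peak of 1600 bp with 120 over 20. Both kept H3K27me3, in 8600 bp with 269 reads and 3800 bp with 110 at Bmp6 and in 3800 bp with 73 and 3400 bp with 105 at Bmp8a. Bmp10, a ligand of the heart, lost an H3K27me3 domain of 5600 bp with 74 reads over 52, although a neuronal domain with 29 reads lay 1373 bp from its start.

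Bmp4, a dorsalizing ligand, had the widest Bmp domain of H3K27me3, 15000 bp with 255 reads in NSCs and 8400 bp with 200 in neurons, and no H3K4me3 within 2345 bp. Bmp2, its closest relative, had both marks in both cell types, with H3K4me3 of 1200 bp with 133 reads in NSCs and only 400 bp with 16 reads in neurons. Bmp7 (169 and 42 reads) and the protease gene Bmp1 (300 and 77 reads over 3800 and 1400 bp) had H3K4me3 alone. Bmp3, which opposes other Bmp ligands in bone, had H3K27me3 alone, with 135 and 60 reads.

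Gdf genes carried H3K4me3 in 6 of 6 in NSCs and 4 in neurons, and H3K27me3 in the same 3, Gdf6, Gdf7 and Gdf10, in both. Gdf7, a ligand of the roof plate, lost an H3K4me3 peak of 800 bp with 47 reads over 6 within an H3K27me3 domain of 17600 bp with 500 reads, which was 10400 bp with 254 reads in neurons. Gdf10, a relative of Bmp3, lost a peak of 1400 bp with 39 over 8, and its H3K27me3 of 23200 bp with 537 reads in NSCs was 93.1% covered in neurons. Gdf6, which shapes the skeleton and eye, kept H3K4me3 at 146 and 74 reads and had the widest H3K27me3 of the family, 24600 bp with 723 reads and 21400 bp with 579. Gdf11, a regulator of neurogenesis, had the widest H3K4me3 of the family, 4800 bp with 359 reads and 2200 bp with 91, with no H3K27me3. Gdf1 and the oocyte factor Gdf9 likewise had H3K4me3 alone, at start sites shared with Lass1 and Uqcrq.

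In the Tgfb and activin family, 4 of 4 genes carried H3K4me3 in NSCs and 3 in neurons. Inhbb, the activin B subunit, had the most H3K4me3 reads of all 56 in NSCs, 598 over 53 in 4400 bp, and 225 over 56 in 4200 bp in neurons. Inhba, the activin A subunit, lost a peak of 1000 bp with 34 reads over 13, with none nearer than 14516 bp in neurons. Tgfb2 had H3K4me3 alone, narrowing from 4000 bp with 245 reads over 61 to 1000 bp with 44 over 19. Tgfb1, a ligand made by many immune cells and glia, was the member of this family with H3K27me3, 7400 bp with 243 reads in NSCs and 4400 bp with 121 in neurons, beside H3K4me3 of 168 and 31 reads.

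Both hedgehog genes carried H3K27me3 in both cell types. Ihh, a ligand of cartilage (mm9 chromosome 1, gene from 74991891 to 74998246), lay in the widest domain of the set, from 74912000 to 75011399 in NSCs. It was 99400 bp wide with 3560 reads over 1206 in NSCs and 69800 bp with 2458 over 708 in neurons, the 9th and 8th widest of all peaks in their lists. The NSC domain held 6 start sites, those of Ccdc108, Cryba2 and Fev among them, so its width is not a property of Ihh alone. H3K4me3 at Ihh was weak in both, 600 bp with 26 reads and 2200 bp with 49. Shh, the ventral midline ligand, had H3K27me3 of 7200 bp with 206 reads in NSCs and 6600 bp with 130 in neurons, and by the 1000 bp limit no H3K4me3. An NSC H3K4me3 peak of 1800 bp with 140 reads over 17 nevertheless began 1042 bp downstream of its start, and a neuronal peak of 1000 bp with 29 reads 1442 bp downstream.

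The antagonists kept H3K4me3. Nog, which binds and blocks Bmp ligands, had 2000 bp with 126 reads in NSCs and 2400 bp with 101 in neurons, a start shared within 391 bp with an unnamed gene. Its H3K27me3 of 9600 bp with 370 reads over 97 in NSCs was absent from the start in neurons, where the nearest domain, of 33 reads, was 2154 bp away. Neuronal peaks covered 37.5% of the NSC domain. Chrd had both marks in both cell types, with H3K4me3 of 136 reads in NSCs and 25 in neurons and H3K27me3 of 71 and 75 reads.

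**Figure D3:**
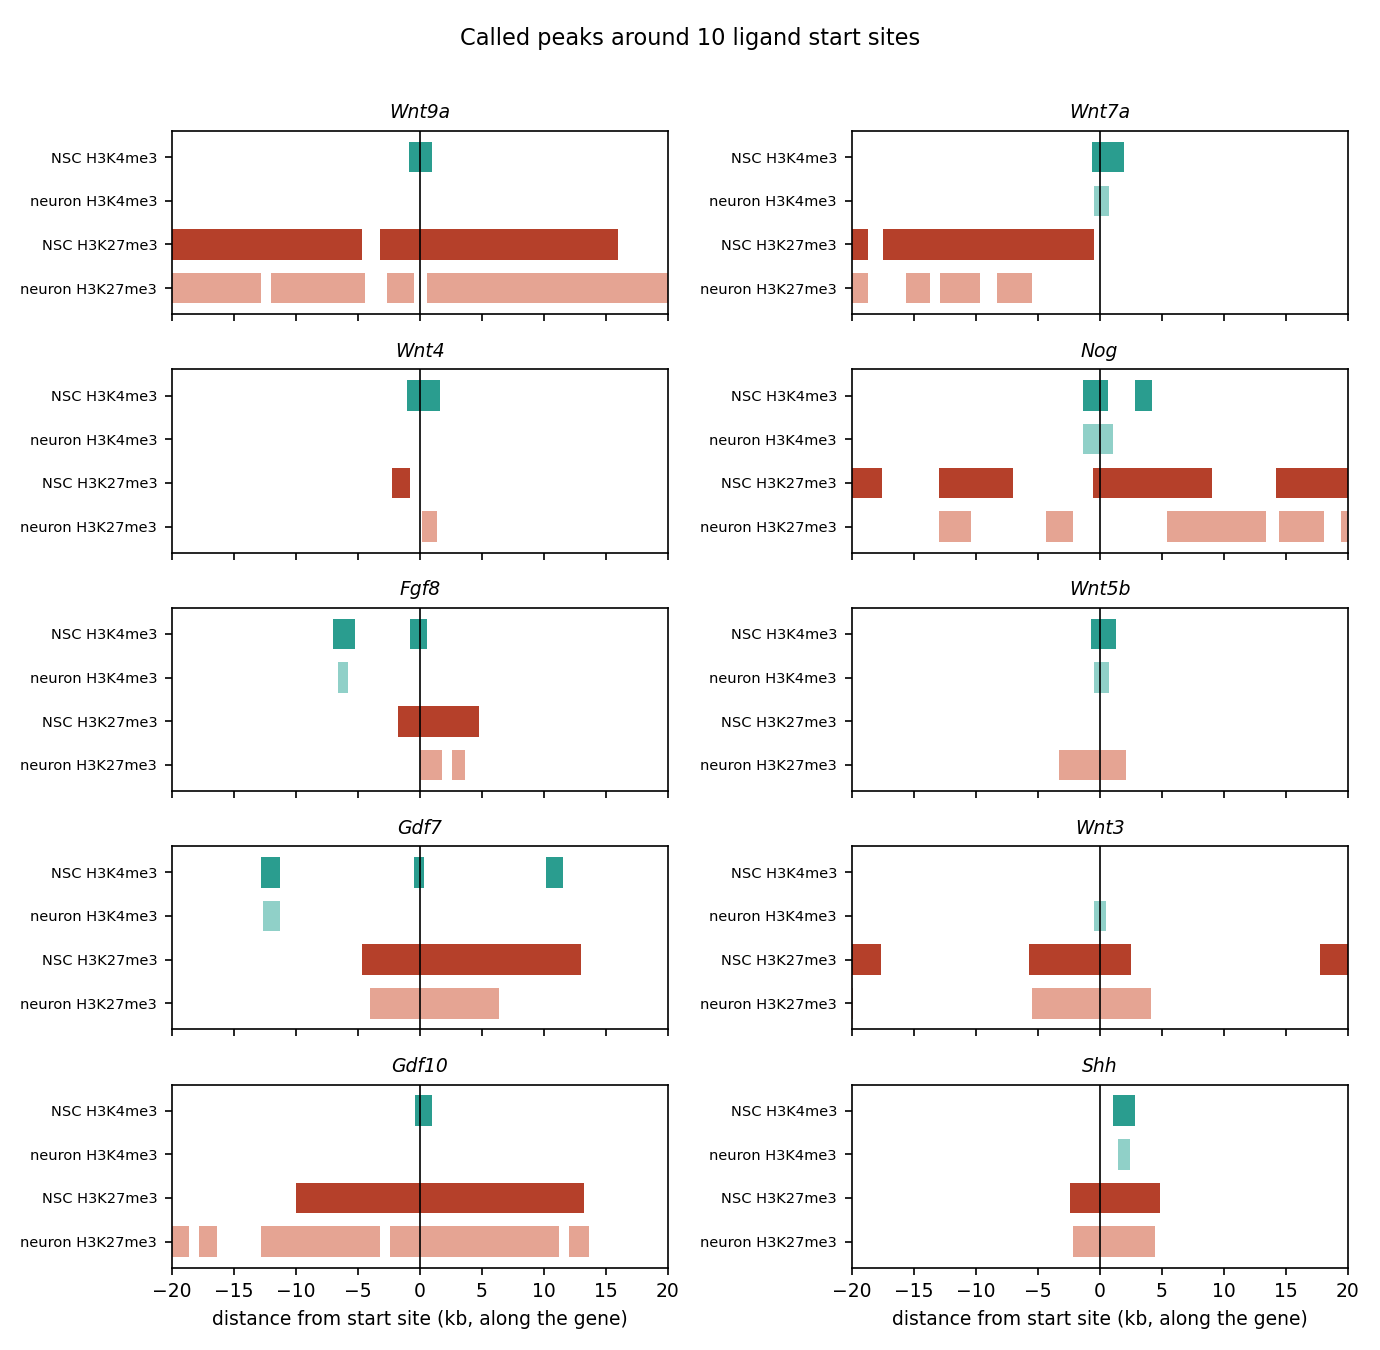
Called peaks (bars) within 20 kb of the start sites of 10 ligand genes, in kb along each gene, with H3K4me3 in green and H3K27me3 in red, darker for NSCs and lighter for neurons. Wnt4, Fgf8, Gdf7, Gdf10 and Wnt9a lack the neuronal H3K4me3 bar at the start site. At Wnt7a and Nog the nearest neuronal H3K27me3 bar lies farther from it than the nearest NSC bar, and at Shh the H3K4me3 bars lie beside it.

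Loss of H3K4me3 went with a small NSC peak. The 14 lost peaks had 24 to 189 reads in NSCs (median 45.5) and the 26 kept had 26 to 598 (median 188.0), so the ranges overlapped. Of the 24 genes with both marks in NSCs, 12 lost H3K4me3 (50.0%), against 42.2% of all genes with both marks, and of the 16 with H3K4me3 alone 2 did (12.5%), against 9.62%. Both shares are near the background. Among the genes with both marks, 7 of 8 with under 50 reads lost it (87.5%, against 81.9% of all such genes), as did 1 of 3 with 50 to 99 reads (33.3%, against 61.3%) and 4 of 12 with 100 to 199 reads (33.3%, against 21.8%). The last 4 were Bmp8a, Fgf8, Wnt4 and Wnt9a. No member with 200 reads or more lost the mark, among 1 with both marks and 12 with H3K4me3 alone. Over all genes that strong 4.91% and 1.44% lost it, so this is near the background. Of the genes with H3K4me3 alone 12 of 16 were that strong, against 7613 of 11617 over all genes. The share of genes with both marks that ended with H3K27me3 alone was 11 of 24, against 37.3% of all such genes. When the 2 H3K4me3 lists were cut to equal numbers of peaks, 8 losses were left (10.9% of all genes marked in NSCs): Bmp8a, Fgf8, Fgf13, Gdf7, Gdf10, Wnt2b, Wnt4 and Wnt9a.

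**Figure D4:**
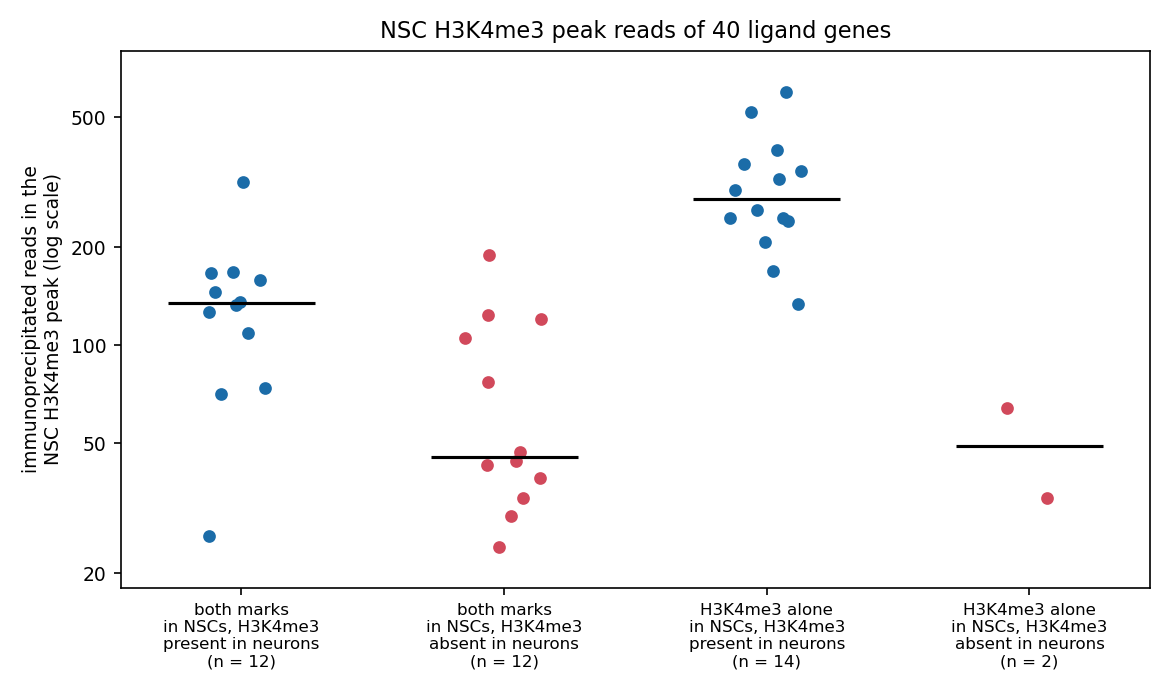
Immunoprecipitated reads in the NSC H3K4me3 peak (log scale) of the 40 ligand genes marked in NSCs, 1 point per gene, by state in NSCs and by presence in neurons, with the median as a bar. Genes with both marks that lost H3K4me3 have a median of 45.5, those that kept it 134.5, and genes with H3K4me3 alone that kept it 280.0.

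By the 1000 bp limit and the full peak lists few ligand genes lost H3K27me3, and the share was higher under some other settings given below. A loss was called at 6 of 37 ligand genes (Bmp10, Fgf7, Fgf13, Fgf23, Nog and Wnt7a), against 25.3% of all marked genes. By NSC state it was 3 of 24 with both marks (25.8% of all such genes) and 3 of 13 with H3K27me3 alone (24.9%). Wnt7a and Nog kept H3K4me3, while Fgf7, Fgf13, Fgf23 and Bmp10 were left with neither mark. If absence had to reach 10000 bp from the start, Fgf7 alone remained of the 6 (8.95% of all marked genes), so for the other 5 a neuronal domain stayed in the neighbourhood.

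Among genes marked in both cell types the called peaks were mostly narrower in neurons, as over all genes. H3K4me3 was narrower at 22 of 26 (81.0% of all genes), with a median neuron over NSC width of 0.586, against 0.733 over all genes. The exceptions that widened were Ihh, Nog and Wnt6. H3K27me3 was narrower at 25 of 31 (76.7% of all genes), with a median ratio of 0.674, against 0.662. Bmp2, Fgf5, Fgf9 and Wnt3 widened, and Wnt6 and Wnt10a had equal widths. The 12 Wnt genes marked in both went from a median domain of 15400 bp in NSCs to 5800 bp in the neurons, with a median ratio per gene of 0.607, near that of all genes.

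A narrower nearest peak did not always mean less coverage. Of the 31 NSC H3K27me3 domains, 14 (45.2%) lay over several neuronal peaks, against 46.2% for all genes. Neuronal peaks covered a median of 78.9% of each ligand domain, against 80.0%. Within 10 kb on either side of the start, the length under H3K27me3 had a median of 14201 bp in NSCs against 10403 bp in neurons, a median ratio of 0.821 against 0.875 over all genes. In all, narrowing of H3K27me3 at the ligand genes was near that of the background. The median domain width was 9600 bp in NSCs against 6300 bp in neurons (8400 and 5000 bp over all marked genes), and the median H3K4me3 peak was 2000 and 1400 bp (2200 and 1800 bp).

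**Figure D5:**
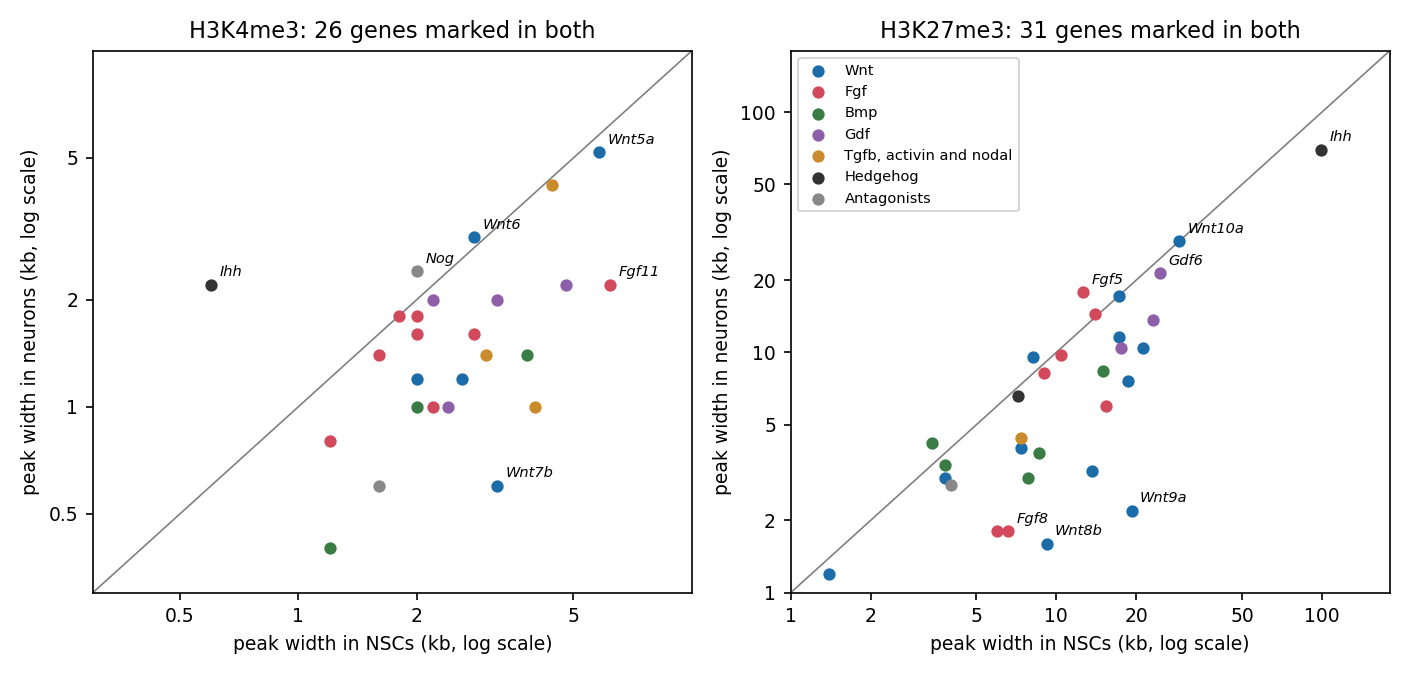
Width of the peak at the start site in NSCs (horizontal) and neurons (vertical, both log scales in kb), 1 point per ligand gene marked in both cell types, coloured by family, with the line of equal width. Most points lie below the line for both marks; Ihh stands above it for H3K4me3, and Wnt9a, Wnt8b and Fgf8 lie far below it for H3K27me3.

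Where both marks met, the H3K4me3 peak usually sat within the H3K27me3 domain. In NSCs it lay wholly inside at 19 of 24 ligand genes, against 67.8% of all genes with both marks, and overlapped in part at Chrd, Nog, Wnt1, Wnt4 and Wnt7a. None of the 24 had the 2 peaks apart, against 7.06%. In neurons 12 of 13 were inside (53.4% of all) and Fgf15 in part, with none apart (14.6%). Whether both marks lay on the same chromosomes or in different cells of a culture cannot be told apart in these libraries.

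Receptor genes mostly carried H3K4me3 without H3K27me3. Of 37 receptor and co-receptor genes scored, 35 carried H3K4me3 in NSCs and 32 in neurons (70.4% and 61.7% of all genes), and H3K27me3 was found at 3 and 6 (19.2% and 17.9%). Among 15 Wnt receptors, Fzd6 lost H3K4me3 (63 reads over 9) and kept H3K27me3, and Fzd5 gained H3K27me3 (84 over 38) beside H3K4me3. Of 11 Bmp, activin and Tgfb receptors, Bmpr1b, Tgfbr1, Tgfbr2 and Tgfbr3 gained H3K27me3 on 36 to 100 reads (4.40% of all unmarked genes gained it), Acvr1b lost it, and Acvr1c lost H3K4me3. The gained peaks covered the start sites of Bmpr1b and Tgfbr2. At Tgfbr1 and Tgfbr3 they lay 895 and 952 bp away, just inside the limit. Among hedgehog receptors and co-receptors, Cdon lost H3K27me3 by the limit, with a neuronal domain 1114 bp away. No Fgf receptor changed, and Fgfr1 and Fgfr4 of the 5 had neither mark within 1000 bp. At Fgfr1 an H3K4me3 peak nevertheless lay 4874 bp from the start site scored, with 424 reads over 34 in NSCs and 104 over 15 in neurons.

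Of 19 inhibitors other than Nog and Chrd, 9 carried H3K27me3 in NSCs and likewise 9 in neurons (19.2% and 17.9% of all genes). H3K4me3 stood at 12 and 9 of them (70.4% and 61.7%). Of all genes marked in NSCs, 13.6% lost H3K4me3 and 25.3% lost H3K27me3, and 4.40% of unmarked genes gained H3K27me3. These shares are also the background for the transducers and targets below. H3K4me3 was lost at Dkk2, a Wnt antagonist, and at Grem1 and Chrdl2, which bind Bmp ligands, while each kept H3K27me3. Wif1, a Wnt-binding inhibitor, lost H3K27me3 and kept H3K4me3 (202 and 54 reads). The 23 signal transducers had H3K4me3 at 22 in both cell types and H3K27me3 at 2 and then 4, with Smad3 and Smad5 gained. The gained peaks lay 399 bp from the start of Smad3 and 972 bp from that of Smad5, the latter just inside the limit. Of 16 target and feedback genes, 16 had H3K4me3 in NSCs and 12 in neurons. The Wnt feedback enzyme gene Notum, the Bmp targets Smad6 and Msx2 and the hedgehog target Gli1 lost it and kept H3K27me3. Spry4 and Etv4, targets of Fgf signalling, gained H3K27me3 (38 and 136 reads) with H3K4me3 still present (109 and 37 reads in neurons, 1043 and 323 in NSCs).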

How the data were processed

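Per the submitters' processing notes, reads were handled with FastQC, Bowtie, SAMtools and SICER on mm9; their versions, settings and duplicate handling were not given in the sources used here. The authors deposited, for each of 4 immunoprecipitated libraries, a peak list and a gene table with, per peak, the count of immunoprecipitated and of input reads, a p-value and FDR (under 0.001), a fold ratio over input and, in the gene tables, a score that was not used. The fold is the ratio of the counts times a constant per library (0.993 to 1.398), so it was compared only within a list. Positions are other deposited columns. Chromatin had been fixed in 1% formaldehyde and sheared to about 300 bp, per the labels' protocols.

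Start sites were the deposited gene start on the plus strand and gene end on the minus strand. A gene was marked where any peak of the full list came within 1000 bp, and the nearest peak (the widest of ties) gave width and reads. The gene tables were not used for calls, since their FDR limits differ (under 0.001 for neuron H3K4me3, under 1e-20 for the other 3). Exact (Clopper-Pearson) 95% intervals of the fold cover counting error only. Full values were given, by a written rule, for genes that changed state, the widest peak of each family, families of 5 or fewer, Shh and Fgf2, and others were described by state. The members and the lists of receptors, inhibitors, transducers, targets and markers were chosen with earlier results of these data known, and the 5 promoters and 10 loci were picked after their values were seen. Some genes of these lists are counted but their values are not reported here. Distances and widths were tested on simulated data and by brute force, with 0 wrong of 500 genes in each check. Names and promoter sequences came from RefSeq tables of GRCm38.p6. The tools were scipy 1.17.1 for intervals, pandas 2.3.3 with numpy 2.4.6, and matplotlib 3.10.9, in Python 3.11.15. Alternatives were 500 and 5000 bp limits, FDR under 1e-20, equal numbers of peaks, the authors' gene tables, absence over 10000 bp, covered length, each shared peak once, secreted ligands alone and, chosen after seeing the data, without chromosome 1.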

Additional observations from a re-analysis of the deposited data

How the results depend on the processing

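No paired analysis was possible because each cell type and antibody had 1 library. By the authors' gene tables, which pair each gene with a peak that need not be the nearest, the counts of ligand genes fell to 23 with H3K4me3 in NSCs, 17 in neurons, 17 with H3K27me3 in NSCs, 17 in neurons, 6 with both marks in NSCs and 4 in neurons, while gains were 4 of 33 for H3K4me3 (9.08% of all genes) and 8 of 39 for H3K27me3 (1.92%). With peaks at FDR under 1e-20 they were 12 with H3K4me3 in neurons, 13 with both marks in NSCs and 2 in neurons, with 0 of 24 gains of H3K4me3 (0.556%) and 4 of 27 of H3K27me3 (2.22%). Losses of H3K4me3 were then 20 of 32, against 40.1% of all genes. Those of H3K27me3 were 8 of 29 at this FDR limit (41.0%) and 8 of 17 by the gene tables (57.2%). In both settings the genes called differed in part from the 6 of the main rule. Within 500 bp there was 1 gain of H3K4me3 and 2 of H3K27me3. Within 5000 bp there were 3 losses of H3K27me3, of 38 ligand genes marked in NSCs, and 2 gains. The shares over all genes at these distance limits are not reported here, so these counts cannot be set against the background. With equal numbers of peaks 8 of 33 losses of H3K4me3 were called (10.9%), and with absence required over 10000 bp 1 of 37 of H3K27me3 (8.95%). The neuron H3K27me3 median was 10401 bp when covered length within 10000 bp replaced peak width. The gains in the report rest on 2 genes for H3K4me3 and 1 for H3K27me3, and the cause of these shifts was not tested. Counting each shared peak once, keeping secreted ligands alone or leaving out the 5 genes of chromosome 1, where input reads were 1.39 to 1.48 times the median autosome, kept every count within 1.5 times. The last alternative was chosen after seeing the data. Without replicates, the spread between cultures is unknown. The lower enrichment of the neuron H3K4me3 library limits what its absent peaks show.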
